A study of Homo sapiens with 23 samples.

Results

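The genes described here are 10 regulators and markers of epithelial and mesenchymal identity out of 28105 genes measured. They were listed by name from knowledge of the 2 cell states, but with earlier results of these data known. Of these genes, 6 are epithelial (GRHL1, GRHL2, OVOL1, OVOL2, ESRP1 and ESRP2) and 4 are mesenchymal (ZEB1, ZEB2, SNAI2 and VIM). Polyadenylated RNA was sequenced from HCT116, a line of human colorectal cancer cells, in 4 groups of 2 libraries grown in McCoy's 5A medium with serum. The groups were WT cells, MLL4 KO cells, cells labelled control (genotype also given as WT) and BAP1 KO cells. MLL4, encoded by KMT2D, is a histone H3K4 methyltransferase of enhancers, and BAP1 is a deubiquitinase of histone H2A. The names of the deposited tables carry osTir1, a plant protein used in degron systems, for control and BAP1 KO only, so each knockout is set against its own comparison group. The sources used here do not say how the knockouts were made or whether the libraries of a group came from separate cultures or clones, so p-values measure only the spread between these libraries.

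GRHL1 and GRHL2 are grainyhead-like transcription factors that bind enhancers of epithelial junction genes. OVOL1 and OVOL2 are zinc-finger repressors of the mesenchymal program, and ESRP1 and ESRP2 are RNA-binding proteins that set epithelial exon choice. ZEB1, ZEB2 and SNAI2 (Slug) are zinc-finger repressors that bind E-box sequences of epithelial genes such as CDH1, and VIM encodes vimentin, the intermediate filament of mesenchymal cells. GRHL2 and ZEB1 are known to repress each other, as are OVOL proteins and ZEB1, and ESRP1 is among the genes ZEB1 represses. The microRNAs of the miR-200 family target ZEB1 and ZEB2 transcripts, and ZEB1 represses the genes of these microRNAs.

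Libraries held 24.8 to 42.2 M reads summed over genes (M, 1e6 reads), and levels are given as TMM-scaled CPM (counts per 1e6 reads), in the order of replicate 1 and replicate 2. The colorectal label was checked against 12 colon epithelial markers. KRT8, KRT18, KRT19, EPCAM and CDH1 were at 28.1 CPM or more in every library, whereas CDX1 had no read and LGALS4, GPA33 and MUC13 stayed below 1 CPM. KMT2D stood at 309 and 370 CPM in WT, against 280 and 406 CPM in MLL4 KO, and BAP1 stood at 56.7 and 62.1 CPM in control, against 67.4 and 57.4 CPM in BAP1 KO. Neither mRNA was therefore lower in every library of its own knockout, so the knockout labels were not borne out by mRNA level.

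Sequences are shown for the pair of mesenchymal genes that rose together in BAP1 KO, ZEB1 and VIM, and for the microRNAs that connect ZEB1 to the epithelial genes. They come from RefSeq on GRCh38.p14, whose promoter table held windows for 4 of the 10 genes. Each promoter line gives the 250 bases before the annotated start, 5′ to 3′ on the plus strand, with the E-box CACCTG in capitals, also where it is read on the minus strand as CAGGTG.
ZEB1, chr10:31318167-31318416: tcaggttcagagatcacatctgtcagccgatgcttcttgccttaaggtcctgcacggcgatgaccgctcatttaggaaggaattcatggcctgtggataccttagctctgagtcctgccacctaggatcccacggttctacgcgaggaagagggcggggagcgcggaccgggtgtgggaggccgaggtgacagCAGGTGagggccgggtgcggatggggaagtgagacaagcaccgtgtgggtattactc
VIM, chr10:17227991-17228240: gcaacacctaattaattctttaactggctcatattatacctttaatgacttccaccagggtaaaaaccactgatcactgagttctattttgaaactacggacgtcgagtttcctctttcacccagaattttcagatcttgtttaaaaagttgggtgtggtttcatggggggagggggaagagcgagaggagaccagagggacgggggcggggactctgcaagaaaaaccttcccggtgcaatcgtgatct
The ZEB1 window held 1 CAGGTG, which began 57 bases before the start, had 15 CG dinucleotides and was 59.2% G or C. The VIM window held neither form of it, had 8 CG dinucleotides and was 46.0% G or C. Of 35116 windows of the same length in the table, 17.5% held this E-box on either strand, and the median window had 11 CG dinucleotides. ZEB1 had 7 annotated start windows, of which 2 held the E-box. AACCGGTT, a site that grainyhead-like proteins bind, was in neither printed window and in 0.117% of all windows. These matches describe the letters only and show no binding.

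The mature microRNAs below are encoded in MIR200CHG on chromosome 12, with the seed (bases 2 to 8) in capitals. Both are known to pair with ZEB1 and ZEB2 transcripts, and their seeds are not identical.
hsa-miR-200c-3p: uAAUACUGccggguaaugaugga
hsa-miR-141-3p: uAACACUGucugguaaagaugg
Mature microRNAs are not measured by poly(A) libraries, so only the level of the host transcript is known here. For MIR200CHG the CPM values were 0.543 and 0.938 (WT), 0.660 and 1.14 (MLL4 KO), 2.00 and 1.64 (control), and 1.21 and 1.96 (BAP1 KO). Its level in each knockout overlapped that of its comparison group, with a log2 fold change of 0.21 in MLL4 KO (edgeR adjusted p = 0.785) and of -0.19 in BAP1 KO (adjusted p = 0.757). MIR205HG, the host of another ZEB-targeting microRNA, was also listed and had too few reads to be tested.

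In WT, MLL4 KO and control the 5 most abundant of the genes were epithelial, whereas in both BAP1 KO libraries VIM and ZEB1 stood above OVOL1 and GRHL2. Levels of different genes are compared per transcript length, as the deposited RPKM. In WT the order of mean RPKM was ESRP1 (27.2), ESRP2 (16.9), GRHL2 (5.47), OVOL1 (4.73) and GRHL1 (2.47), followed by OVOL2, VIM, ZEB1 and SNAI2, all under 0.6, and ZEB2 with no read. GRHL2 and OVOL1 overlapped, as did OVOL2 with VIM, VIM with ZEB1 and ZEB1 with SNAI2. In control ESRP1 (78.3) and ESRP2 (9.86) again led, and GRHL2 (6.14) and OVOL1 (6.34) again overlapped. In BAP1 KO the order behind ESRP1 (40.3) and ESRP2 (8.17) was VIM (3.11), ZEB1 (2.25), GRHL1 (2.09), OVOL1 (1.31) and GRHL2 (0.284). VIM and ZEB1 overlapped with each other, both overlapped with GRHL1, which was above them in BAP1 KO replicate 2, and GRHL2 overlapped with OVOL2 (0.132).

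**Figure D1:**
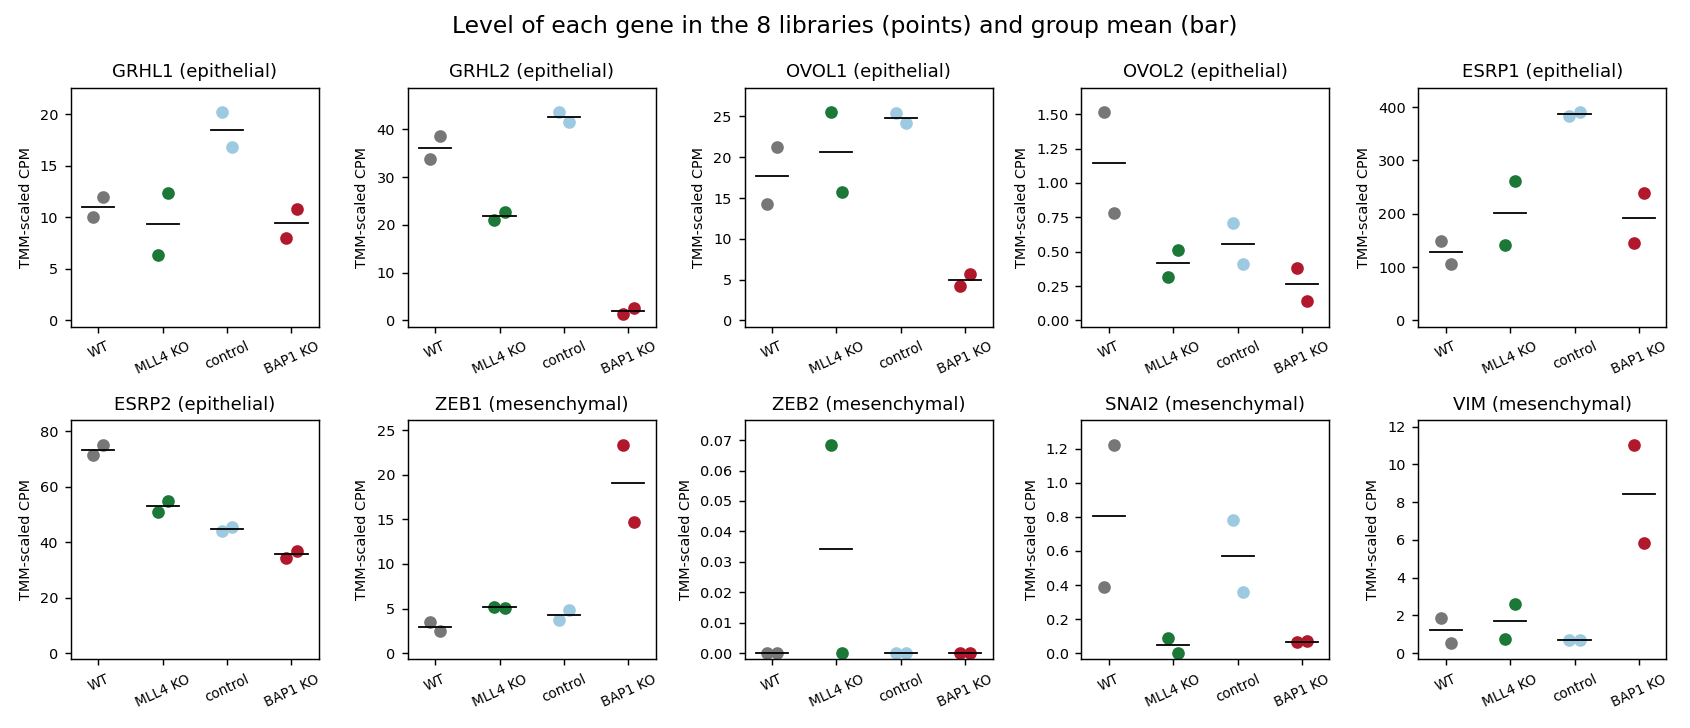
Level of each of the 10 genes (TMM-scaled CPM, linear axis with its own scale per panel) by group, with 1 point per library and a bar at the mean of 2 libraries. GRHL2 and OVOL1 are lowest and ZEB1 and VIM highest in the BAP1 KO libraries, ZEB2 has 3 reads in a single library, and ESRP1 is highest in control.

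The first comparison asked which of these genes differed between BAP1 KO and control. In BAP1 KO, GRHL2 fell to a small remainder of its control level, OVOL1 and GRHL1 also fell, and ZEB1 and VIM rose. Of the 9 genes that could be tested, 5 passed an adjusted p of 0.05 in BAP1 KO against control, 3 of them lower (all epithelial) and 2 higher (both mesenchymal). Among all 16831 tested genes 22.4% passed, 10.4% as lower and 12.1% as higher. The median log2 fold change was -0.99 over the 6 epithelial genes and 2.13 over the 3 tested mesenchymal genes, against 0.013 over all genes. The mesenchymal median was the value of ZEB1 itself, with VIM at 3.56 and SNAI2 in the other direction at -2.91. The count was 3 without control replicate 1 or control replicate 2, and 8 when only the 4 libraries of the comparison were fitted.

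GRHL2 (chr8:101492439-101681200) stood at 43.5 and 41.5 CPM in control, against 1.28 and 2.53 CPM in BAP1 KO, or 1111 and 1620 reads against 40 and 71. Every control library was above every BAP1 KO library, and both BAP1 KO libraries also lay below the WT libraries (33.9 and 38.5 CPM). The log2 fold change was -4.50 ± 0.25 (SE, edgeR adjusted p = 1.25e-05), and 71 of the 16831 tested genes, GRHL2 included, had a value as low. Its call held in all 19 alternative fits, including each fit with 1 library left out, with log2 fold changes from -5.05 to -4.07. None of the 10 nearest tested genes on the chromosome passed in edgeR or in DESeq2, and 1 of them had an unadjusted edgeR p under 0.05. Their median log2 fold change was -0.25. NCALD, which lies next to GRHL2, had the lowest value of them, -1.54 (adjusted p = 0.119).

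GRHL1 (chr2:9951693-10002277), a paralog of GRHL2, stood at 20.2 and 16.8 CPM in control, against 8.04 and 10.8 CPM in BAP1 KO. The groups did not overlap, but the BAP1 KO values overlapped with those of WT (10.1 and 11.97 CPM). The log2 fold change was -0.97 ± 0.30 (adjusted p = 0.0439) and the call was a narrow one. It was lost without WT replicate 1 (adjusted p = 0.0503), control replicate 1 (0.218), control replicate 2 (0.117), BAP1 KO replicate 1 (0.267) or BAP1 KO replicate 2 (0.0814), and with summed transcript rows (0.0632). The ratio of GRHL2 to GRHL1 RPKM was 1.46 and 1.67 in control and 0.107 and 0.158 in BAP1 KO. GRHL1 was thus the more abundant of the pair in BAP1 KO alone. GRHL3, another paralog, stood at 0.470 and 0.282 CPM in control, against 1.72 and 0.962 CPM in BAP1 KO. Its log2 fold change of 1.91 ± 0.625 did not pass (edgeR adjusted p = 0.0552) but passed on the 4 libraries of the comparison alone (0.0175).

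OVOL1 (chr11:65787063-65797214) stood at 25.4 and 24.2 CPM in control, against 4.18 and 5.74 CPM in BAP1 KO. The BAP1 KO libraries were the lowest of all 8, below WT at 14.2 and 21.2 CPM. The log2 fold change of OVOL1 was -2.33 ± 0.29 (adjusted p = 0.000927), and this call held in all 19 alternative fits. OVOL2 (chr20:18024152-18059188) was scarce everywhere, at 18 and 16 reads in control, against 12 and 4 reads in BAP1 KO. Its log2 fold change of -0.97 ± 0.71 did not pass (adjusted p = 0.360). Among the neighbours of OVOL1, CFL1 passed as higher (log2 fold change 0.53) and MUS81 as lower (-0.50), with a median of -0.089 over the 10 nearest tested genes. The CFL1 call was lost without either control library (adjusted p of 0.107 and 0.127), and the MUS81 call without each of the 4 control and BAP1 KO libraries (0.103 to 0.194).

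The splicing regulators kept their place at the head of the order in BAP1 KO. ESRP1 (chr8:94641174-94707466) stood at 383 and 390 CPM in control, against 145 and 239 CPM in BAP1 KO. Its groups did not overlap, yet the change of -1.01 ± 0.34 did not pass (adjusted p = 0.0759). It passed with DESeq2 (0.00212), on the 4 libraries of the comparison alone (0.0248), and without MLL4 KO replicate 1 (0.0259) or MLL4 KO replicate 2 (0.0278), in a range of 0.00212 to 0.306 over the alternatives. In WT, ESRP1 stood at 150 and 106 CPM, which overlapped with BAP1 KO. ESRP2 (chr16:68229033-68236127) stood at 44.0 and 45.3 CPM in control, against 34.4 and 36.9 CPM in BAP1 KO, a log2 fold change of -0.33 ± 0.12 that did not pass (adjusted p = 0.0737). It passed on the 4 libraries alone (0.0177) and without WT replicate 1 (0.0457) or WT replicate 2 (0.0459), in a range of 0.0177 to 0.319. ESRP2 overlaps NFATC3 on the chromosome, and reads of the pair cannot be told apart where they overlap if strand was not used in counting. Summed over both genes, ESRP RPKM was 86.8 and 89.5 in control, 38.5 and 58.3 in BAP1 KO, and 49.2 and 39.2 in WT.

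Among the mesenchymal genes, ZEB1 (chr10:31318417-31529804) stood at 3.72 and 4.85 CPM in control, against 23.3 and 14.8 CPM in BAP1 KO. The BAP1 KO libraries were the highest of all 8. ZEB1 rose by 2.13 ± 0.27 on the log2 scale (adjusted p = 0.000907), and the call held in all 19 alternative fits. VIM (chr10:17228241-17237593) stood at 0.705 and 0.718 CPM in control (18 and 28 reads) and at 11.01 and 5.84 CPM in BAP1 KO (345 and 164 reads). It rose by 3.56 ± 0.65 (adjusted p = 0.00672), and 52 of 16831 genes, VIM included, had a value as high. The call was lost without control replicate 1 (0.0642) or control replicate 2 (0.0792), with log2 fold changes of 3.55 and 3.56 there. With BAP1 KO replicate 1 and 2 at 4.08 and 2.13 RPKM, VIM remained far below the ESRP transcripts.

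SNAI2 and ZEB2, the other EMT regulators among the 10, did not rise. EMT, the epithelial to mesenchymal transition, is the program that ZEB and SNAI factors induce. SNAI2 (chr8:48917598-48921429) had 20 and 14 reads in control, against 2 and 2 reads in BAP1 KO, a lower value in both knockout libraries with a log2 fold change of -2.91 ± 1.06 that did not pass (adjusted p = 0.0688). It passed on the 4 libraries alone (0.0223) and without WT replicate 1 (0.0374) or WT replicate 2 (0.0377), in a range of 0.0223 to 0.306. ZEB2 (chr2:144384081-144520119) had no read in 7 libraries and 3 reads in MLL4 KO replicate 1, and was the 1 gene of the 10 that could not be tested. A count of 0 allows up to 3 reads, or 0.0769 to 0.117 CPM in the control and BAP1 KO libraries, and counting error is all that this limit covers.

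Antisense genes lie across both mesenchymal genes that rose. VIM-AS1 rose with VIM, from 0.0783 and 0.154 CPM to 5.14 and 2.49 CPM (log2 fold change 4.92 ± 0.82, adjusted p = 0.00336, lost without control replicate 2 at 0.0572). The 2 genes overlap, so their reads cannot be told apart if strand was not used in counting. ZEB1-AS1, whose annotated span overlaps the start of ZEB1, stood at 4.74 and 6.21 CPM in control, against 5.65 and 5.34 CPM in BAP1 KO. Its log2 fold change of -0.009 ± 0.22 (adjusted p = 0.982) stood beside the rise of 2.13 for ZEB1. Of the 10 genes nearest to ZEB1, 2 passed as higher (JCAD at 2.67 and ARHGAP12 at 0.71) and 2 as lower (ITGB1 at -1.06 and CCDC7 at -0.89). Both higher calls were lost without either control library, with adjusted p up to 0.0846. The ITGB1 call was lost without BAP1 KO replicate 1 (adjusted p = 0.0640), and the CCDC7 call without each of the 4 control and BAP1 KO libraries (0.116 to 0.176). Near VIM, VIM-AS1 was the only higher call and RSU1 (-0.75) the only lower one, the latter lost without control replicate 2 (0.0518).

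**Figure D2:**
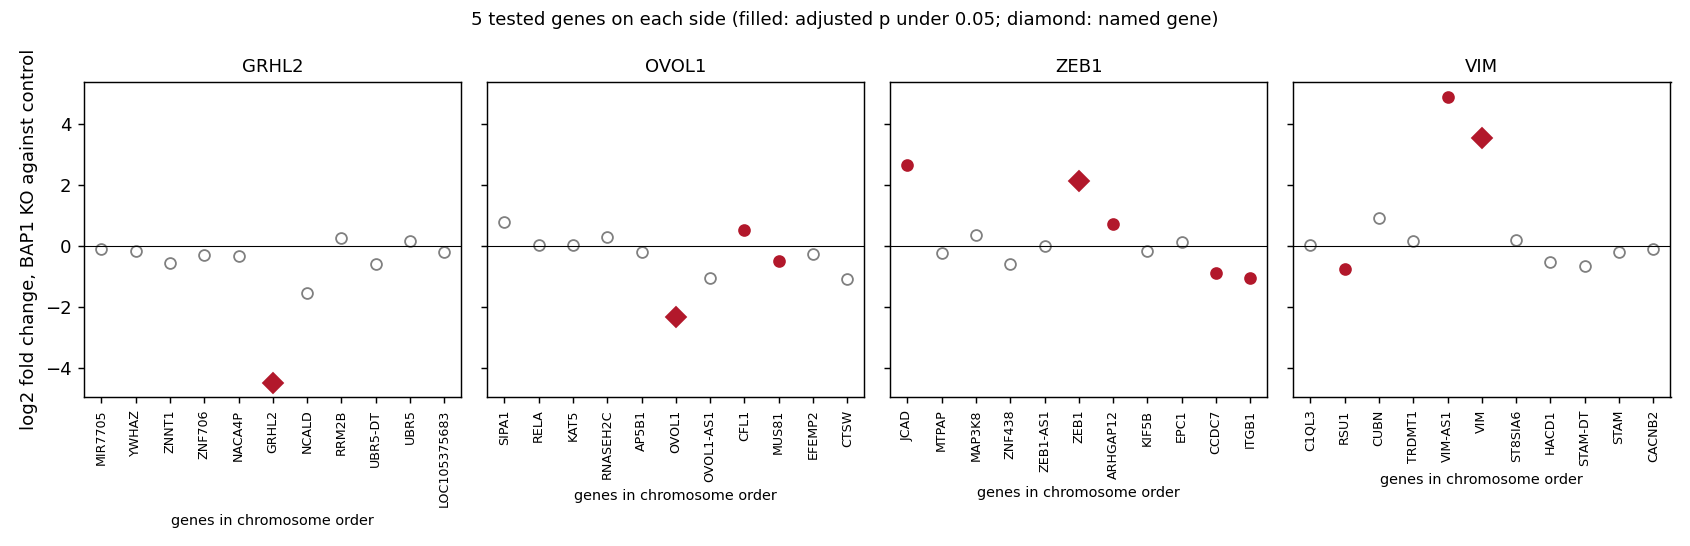
Log2 fold change of BAP1 KO against control (vertical axis) for GRHL2, OVOL1, ZEB1 and VIM (diamonds) and the 5 nearest tested genes on each side in chromosome order (circles, filled where edgeR's adjusted p is under 0.05). The GRHL2 diamond at -4.50 lies far below its 10 open circles, and beside VIM at 3.56 a single neighbour, VIM-AS1 at 4.92, is as high.

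Set against each other within a library, the regulators changed places in BAP1 KO. The ratio of GRHL2 to ZEB1 RPKM was 14.8 and 10.9 (control), 12.2 and 20.0 (WT), 5.15 and 5.64 (MLL4 KO), and 0.0695 and 0.217 (BAP1 KO). GRHL2 thus exceeded ZEB1 in all 6 other libraries and was below it in both BAP1 KO libraries. The OVOL1 to ZEB1 ratio was 15.3 and 11.2 in control and 0.403 and 0.873 in BAP1 KO. BAP1 KO replicate 1, with the lower GRHL2 and OVOL1 of the pair, was also the library with the higher ZEB1 and VIM and the lower ESRP1. The mean log2(CPM + 1) of the 6 epithelial genes minus that of the 4 mesenchymal genes was 3.95 and 3.87 (control), 3.50 and 3.66 (WT), 3.30 and 3.35 (MLL4 KO), and 1.19 and 1.87 (BAP1 KO).

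**Figure D3:**
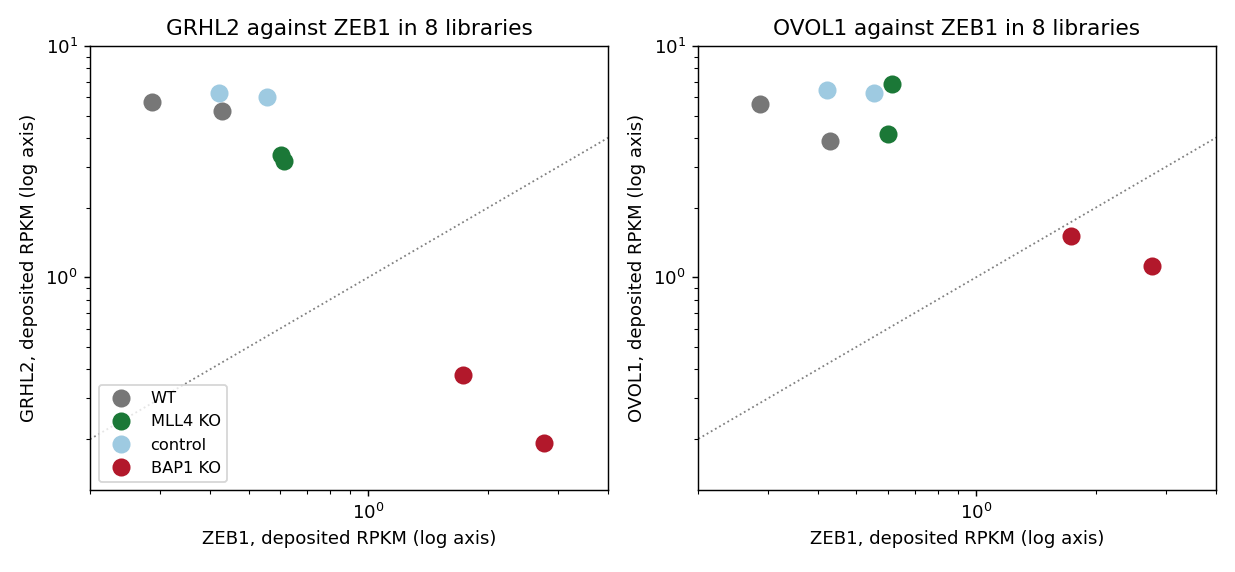
Deposited RPKM of GRHL2 (left) and OVOL1 (right) against ZEB1 in the 8 libraries, on log axes, with a dotted line of equal RPKM. Both BAP1 KO points fall below the line, at GRHL2 to ZEB1 ratios of 0.0695 and 0.217, and the 6 other points lie above it.

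The second comparison asked which of the genes differed between MLL4 KO and WT. In MLL4 KO, GRHL2, ESRP2 and SNAI2 fell, ZEB1 and VIM did not pass, and none of the 10 genes passed as higher in edgeR or DESeq2 (1 had an unadjusted edgeR p under 0.05). Of 9 tested genes 3 passed, all lower, while among all 16831 genes 19.1% passed, 10.0% as lower and 9.13% as higher. The count of 3 rested on single libraries. It was 0 without WT replicate 2 or MLL4 KO replicate 2 and 1 without MLL4 KO replicate 1, control replicate 1 or control replicate 2, and 0 when only the 4 libraries of the comparison were fitted. The median log2 fold change was -0.36 over the epithelial genes and 0.47 over the tested mesenchymal genes, against 0.004 over all genes. The mesenchymal median was the value of VIM itself, with ZEB1 at 0.80 and SNAI2 in the other direction at -3.92.

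GRHL2 stood at 33.9 and 38.5 CPM in WT, against 20.9 and 22.8 CPM in MLL4 KO, with no overlap. Its log2 fold change was -0.73 ± 0.19 (adjusted p = 0.0311). The call was lost without WT replicate 2 (0.128), MLL4 KO replicate 1 (0.0873), MLL4 KO replicate 2 (0.105), control replicate 1 (0.0762) or control replicate 2 (0.0694), with log2 fold changes from -0.82 to -0.63 over all alternatives. ESRP2 stood at 71.5 and 74.9 CPM in WT, against 50.9 and 54.8 CPM in MLL4 KO, also with no overlap. It fell by 0.47 ± 0.11 (adjusted p = 0.0255), a call lost without WT replicate 2 (0.0840), MLL4 KO replicate 1 (0.0727), MLL4 KO replicate 2 (0.0822), control replicate 1 (0.0764) or control replicate 2 (0.0670). Of the 10 tested genes nearest to ESRP2, 5 passed as lower and 1 as higher in the same comparison, with a median of -0.47. These 6 calls were lost without WT replicate 2 (adjusted p from 0.0658 to 0.112) and without MLL4 KO replicate 2 (from 0.0913 to 0.174). SNAI2 had 10 and 39 reads in WT, against 4 and 0 reads in MLL4 KO. Its log2 fold change of -3.92 ± 0.94 (adjusted p = 0.0205) rests on these few reads and was lost without WT replicate 2 (0.188) or MLL4 KO replicate 2 (0.102).

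The other members did not pass in MLL4 KO. ZEB1 stood at 3.53 and 2.44 CPM in WT, against 5.14 and 5.12 CPM in MLL4 KO, higher in both knockout libraries, with a log2 fold change of 0.80 ± 0.31 (adjusted p = 0.0955). ESRP1 stood at 150 and 106 CPM in WT, against 142 and 261 CPM in MLL4 KO, overlapping (0.66 ± 0.34, adjusted p = 0.210). OVOL2 had 39 and 25 reads in WT, against 14 and 17 reads in MLL4 KO (-1.46 ± 0.53, adjusted p = 0.0818). GRHL1, OVOL1 and VIM overlapped between the groups, and the direction of each reversed when single libraries were left out. GRHL1 was at 10.1 and 11.97 CPM in WT, against 6.31 and 12.3 CPM in MLL4 KO, OVOL1 at 14.2 and 21.2 against 25.5 and 15.7 CPM, and VIM at 1.86 and 0.562 against 0.774 and 2.59 CPM. The spread within WT and MLL4 KO was wider than elsewhere, with a median absolute log2 difference between libraries of a pair of 0.233 in WT, 0.179 in MLL4 KO, 0.156 in BAP1 KO and 0.082 in control. ZEB1-AS1 did pass in MLL4 KO, from 1.78 and 1.69 CPM to 4.44 and 4.19 CPM (1.32 ± 0.26, adjusted p = 0.0145), a call lost without WT replicate 2 (0.0677) or MLL4 KO replicate 2 (0.0508).

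**Figure D4:**
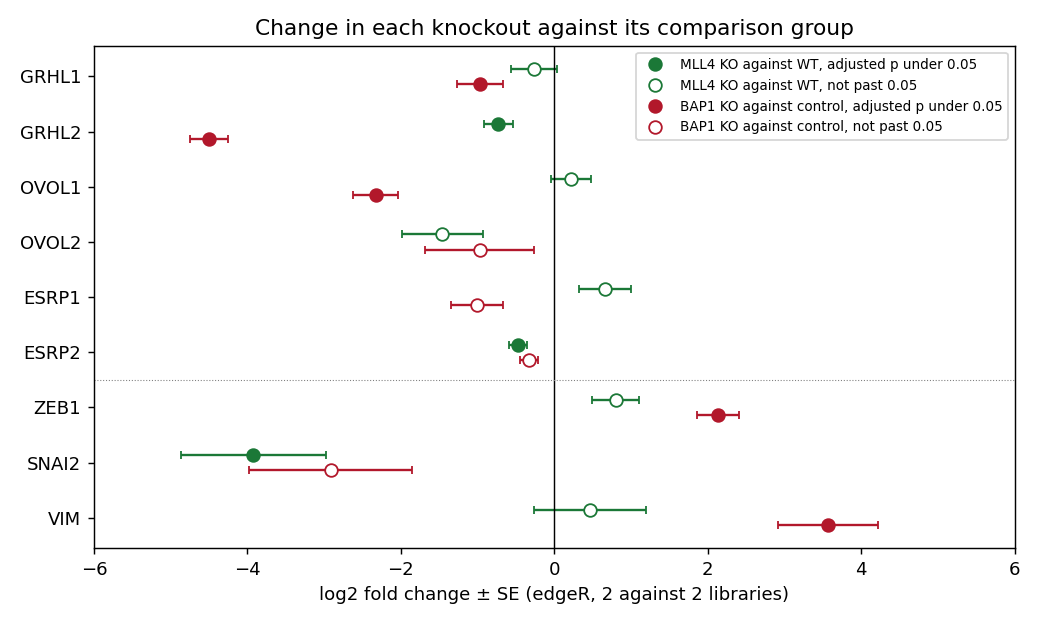
Log2 fold change with its SE (horizontal axis) of the 9 tested genes in MLL4 KO against WT (green) and BAP1 KO against control (red), filled where edgeR's adjusted p is under 0.05, with epithelial genes above the dotted line. GRHL2 lies at -0.73 in MLL4 KO and -4.50 in BAP1 KO, and OVOL1 at 0.22 and -2.33, the 2 genes whose effects differed by test.

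The difference between the 2 knockout effects was tested directly. It passed for 2 of 9 genes, while 16.1% of all tested genes passed (7.75% with a higher and 8.32% with a lower effect in MLL4 KO). The count was 5 with DESeq2 and 4 without MLL4 KO replicate 1 or BAP1 KO replicate 2. The effect on GRHL2 was 3.77 ± 0.31 log2 units more negative in BAP1 KO than in MLL4 KO (adjusted p = 0.000587), and that on OVOL1 2.55 ± 0.39 (adjusted p = 0.00461). Both calls held in all 18 alternatives. For ESRP1 (1.67 ± 0.48, adjusted p = 0.0578), ZEB1 (-1.34 ± 0.42, adjusted p = 0.0564) and VIM (-3.10 ± 1.04, adjusted p = 0.0774) the difference did not pass, although each passed with DESeq2, at 0.000404, 0.0155 and 0.00364. ZEB1 also passed without BAP1 KO replicate 2 (0.0351), ESRP1 without MLL4 KO replicate 1 (0.0135) or BAP1 KO replicate 2 (0.0397), and VIM without MLL4 KO replicate 2 (0.0380). The ranges over alternatives were 0.000404 to 0.175 for ESRP1, 0.0155 to 0.200 for ZEB1 and 0.00364 to 0.309 for VIM. For the remaining genes the difference was 0.71 ± 0.42 for GRHL1 (adjusted p = 0.277, or 0.0430 without MLL4 KO replicate 1), -0.49 ± 0.93 for OVOL2, -0.15 ± 0.16 for ESRP2 and -1.01 ± 1.87 for SNAI2.

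The comparison groups themselves differed in the splicing regulators. ESRP1 was higher in control than in WT, at 383 and 390 against 150 and 106 CPM (1.60 ± 0.35, adjusted p = 0.0103, lost without WT replicate 2 at 0.0849). ESRP2 was lower in control, at 44.0 and 45.3 against 71.5 and 74.9 CPM (-0.71 ± 0.12, adjusted p = 0.00141, held in all 19 alternatives). These were 2 of 9 genes, and 39.6% of all tested genes passed between control and WT, 19.9% as higher and 19.7% as lower. As a share of ESRP RPKM, ESRP1 accounted for 65.7% and 56.5% (WT), 71.9% and 81.4% (MLL4 KO), 88.9% and 88.8% (control), and 79.4% and 85.6% (BAP1 KO). The labels give no batch, and a batch between control and WT cannot be told apart from this difference.

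Genes that GRHL2 is known to bind or ZEB1 to repress were taken as a list of 36, of which 35 could be tested. In BAP1 KO 15 fell and 2 rose, and 18 missed the threshold, while 10.4% of all tested genes fell and 12.1% rose. The median log2 fold change was -0.53. PROM2, a membrane protein of epithelial protrusions, fell from 14.3 and 13.5 CPM to 0 and 0.499 CPM (-5.86 ± 0.59). CGN (cingulin, of tight junctions) fell by 2.21 on the log2 scale, the claudin gene CLDN7 by 1.93, the adhesion molecule gene EPCAM by 1.33 and CDH1 (E-cadherin) by 2.27. Other junction and adhesion genes of the list did not pass, among them CLDN3 (-0.53, adjusted p = 0.579), CLDN4 (-1.11, 0.0719), TJP3 (-0.96, 0.170), MARVELD2 (-0.46, 0.0616), MARVELD3 (-0.45, 0.194), CDH3 (-0.45, 0.207), JUP (-0.17, 0.591) and DSP (0.11, 0.587). AP1M2, a sorting adaptor of epithelial cells, was at -1.96 and GRB7, a signalling adaptor, at -1.12. The 2 genes that rose were EVPL (envoplakin, 0.93) and MUC1 (1.52). The number that fell was 8 without control replicate 1, 7 without control replicate 2, 8 without BAP1 KO replicate 1 and 14 to 19 without any of the others. CDH1 lost its call without control replicate 2 (0.0511) and MUC1 without control replicate 1, control replicate 2 or BAP1 KO replicate 2 (up to 0.0970), while PROM2, CGN, CLDN7, EPCAM, AP1M2, GRB7 and EVPL lost theirs in no alternative.

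In MLL4 KO the same list had 3 genes lower, 3 higher and 29 short of the threshold, and its median was 0.075. These counts were near the shares over all tested genes, 10.0% lower and 9.13% higher. Those that fell included EPCAM (-1.12) and PROM2 (-1.56), and GRB7 (0.97), LSR (0.58) and PPL (1.05) rose. The counts moved with single libraries, to 5 higher and 5 lower when WT replicate 1 was left out, 1 and 2 without WT replicate 2 or without either control library, 3 and 2 when MLL4 KO replicate 1 was left out, and 0 and 2 for MLL4 KO replicate 2. Each of these 5 named genes lost its call without at least 1 library, with adjusted p up to 0.216.

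The same genes also differed between the comparison groups. In control 21 of the 35 were higher than in WT (19.9% of all tested genes) and none lower in edgeR, at an unadjusted p or in DESeq2, and 12 were higher without control replicate 1 or control replicate 2. BAP1 KO values of PROM2, CGN and AP1M2 lay below those of WT as well as those of control. GRB7 in BAP1 KO (33.2 and 40.2 CPM) lay above WT (22.3 and 17.9 CPM) and below control (78.6 and 80.9 CPM). EPCAM in BAP1 KO (123 and 196 CPM) lay below both WT (214 and 282 CPM) and control (389 and 413 CPM). CDH1 in BAP1 KO (28.1 and 70.2 CPM) overlapped with WT (77.9 and 62.3 CPM), and so did CLDN7, at 78.4 and 141 CPM whereas WT was at 127 and 149 CPM, and control at 419 and 418 CPM.

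**Figure D5:**
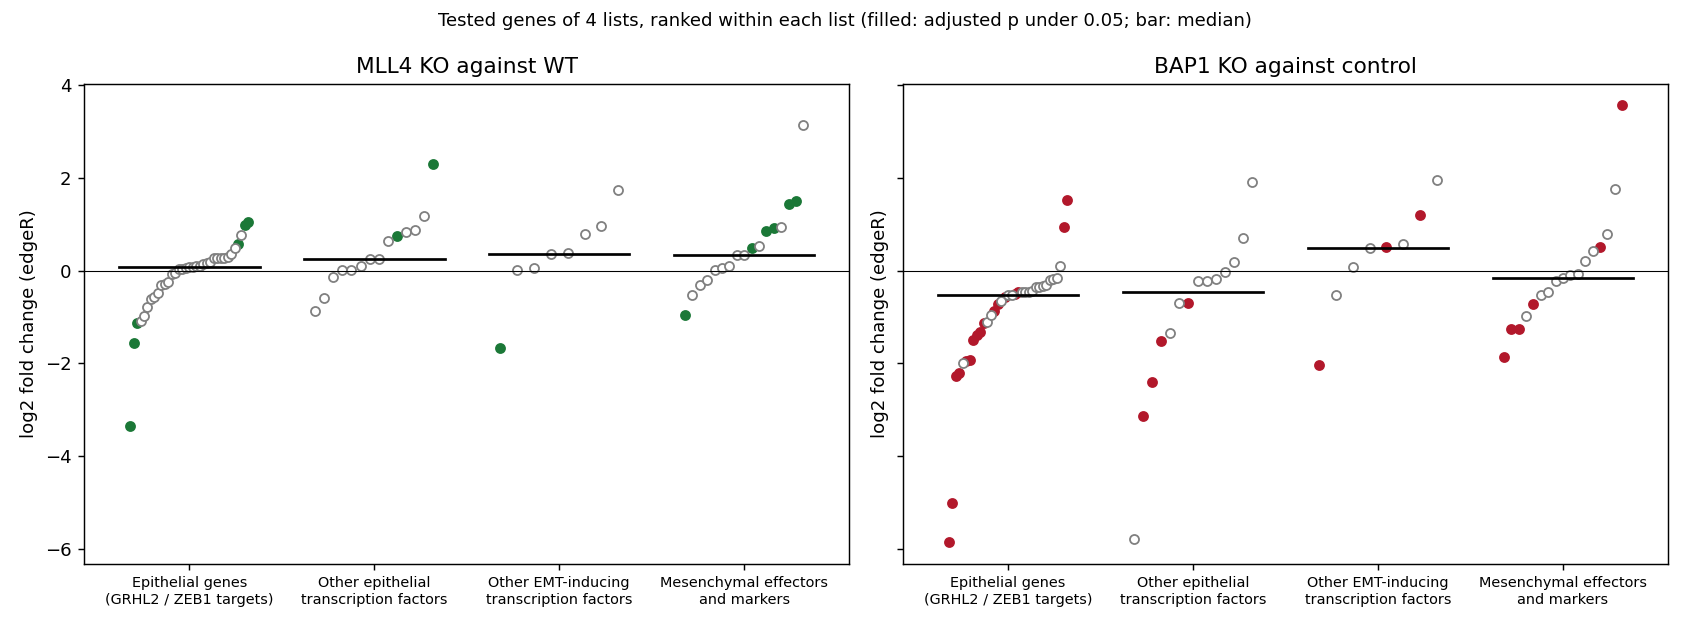
Log2 fold change (vertical axis) of the tested genes of 4 lists in MLL4 KO against WT (left) and BAP1 KO against control (right), each gene a circle ranked within its list, filled where edgeR's adjusted p is under 0.05, with a bar at the median. In BAP1 KO the epithelial target list has its median at -0.53 and 15 filled circles below 0, whereas in MLL4 KO its median is 0.075.

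Other epithelial transcription factors were counted beside the GRHL and OVOL genes. Of 14 tested, 4 fell in BAP1 KO, with a median of -0.47, while 10.4% of all tested genes fell. None rose in edgeR or DESeq2 (1 at an unadjusted edgeR p under 0.05), while 12.1% of all tested genes rose. EHF had the lowest value of the list, -5.80 ± 1.91, with control at 121 and 109 CPM and BAP1 KO at 1.085 and 3.10 CPM. It did not pass on all 8 libraries (adjusted p = 0.0994), where WT stood at 85.3 and 1.50 CPM. It passed with DESeq2 and on the 4 libraries of the comparison alone (0.000366). The 4 that fell were ELF3 (-2.41), the hepatocyte and intestinal factor HNF4A (-3.15), KLF4 (-1.52) and the intestinal homeobox gene CDX2 (-0.70). HNF4A was already lower in control (1.14 and 1.28 CPM) than in WT (8.03 and 11.8 CPM). That log2 fold change was -3.03 (edgeR adjusted p = 0.000131). Its BAP1 KO libraries were lower still (0.191 and 0.0712 CPM). ELF3 in BAP1 KO (26.6 and 51.9 CPM) overlapped with WT (71.0 and 38.8 CPM). So did KLF4 (29.35 and 43.95 against 36.2 and 75.6 CPM). CDX2 in BAP1 KO (12.35 and 10.69 CPM) lay below WT (17.95 and 18.28 CPM). No call of the 4 held in every fit. Each lost its call without at least 1 library, ELF3 without control replicate 1 (0.0523), HNF4A without control replicate 2 (0.0592) or BAP1 KO replicate 2 (0.0565), KLF4 without control replicate 1 (0.0983), control replicate 2 (0.0873) or BAP1 KO replicate 1 (0.116), and CDX2 without control replicate 1 (0.0714), control replicate 2 (0.109) or BAP1 KO replicate 2 (0.0671). In MLL4 KO 2 rose, among them KLF5 (2.29, lost without WT replicate 2 at 0.115). None fell there in edgeR, at an unadjusted p or in DESeq2, and 4 rose without WT replicate 1.

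Of 13 other EMT-inducing transcription factors 8 could be tested. Among all tested genes 12.1% rose and 10.4% fell in BAP1 KO, and 9.13% rose and 10.0% fell in MLL4 KO. In BAP1 KO TCF3 (E2A, 0.51) and SNAI3 (1.20) rose and TWIST1 fell (-2.03), and none of the 3 calls held without control replicate 1 or control replicate 2. TCF3 was also lost without BAP1 KO replicate 1, and SNAI3 and TWIST1 without BAP1 KO replicate 2, with adjusted p up to 0.166. SNAI1 (Snail) stood at 6.42 and 6.85 CPM in control, against 6.57 and 7.48 CPM in BAP1 KO (0.078 ± 0.23, adjusted p = 0.841). Both groups lay below WT, which was at 11.98 and 15.84 CPM. In MLL4 KO SOX4 alone passed, as lower (-1.66), a call lost without MLL4 KO replicate 1, MLL4 KO replicate 2, control replicate 1 or control replicate 2 (0.0645 to 0.123).

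Mesenchymal effectors and markers were taken as 30 genes, of which 17 could be tested. In BAP1 KO 2 rose (SPARC, 3.56, and MYL9, 0.52), a count near the share of 12.1% over all tested genes. Another 4 fell (CALD1, -0.72, ACTA2, -1.26, FN1, -1.26, and TNC, -1.87), while 10.4% of all tested genes fell. The median of the list was -0.17. On the 4 libraries of the comparison alone, 4 were higher and 5 lower. S100A4, a calcium-binding protein of motile cells, stood at 74.1 and 70.9 CPM in control, against 234 and 257 CPM in BAP1 KO. Its change of 1.76 ± 1.38 did not pass on all 8 libraries (adjusted p = 0.429), where WT spread from 4.41 to 106 CPM, but passed on the 4 libraries alone (6.44e-06). CALD1 kept its call in all alternatives, whereas each of the others lost it without control replicate 1 and again without control replicate 2, which left 1 gene lower. Without MLL4 KO replicate 1 there was 1 higher, without BAP1 KO replicate 1 there were 0 higher and 2 lower, and without BAP1 KO replicate 2 there were 1 higher and 1 lower. In MLL4 KO 5 rose (FSTL1, 0.84, FN1, 1.49, COL6A1, 0.93, ITGA5, 0.49, and ACTA2, 1.43), while 9.13% of all tested genes rose. FBN1 fell (-0.97), while 10.0% of all tested genes fell, and the median of the list was 0.33. The 5 that rose became 1 when WT replicate 2 was left out, 0 for MLL4 KO replicate 2 and 2 for control replicate 1 or control replicate 2. FBN1 lost its call without each library other than WT replicate 1 (up to 0.136).

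Vimentin is also a marker of fibroblasts and of other cells that could enter a culture, so their markers were read in the same libraries. Of 10 fibroblast markers DCN, LUM and POSTN had no read in any library, and the summed level of 48.5 and 54.5 CPM in control, against 55.2 and 43.5 CPM in BAP1 KO, was nearly all COL1A1. Of 7 immune markers CD3E had no read, and the sum of 27.8 and 28.9 CPM in control, against 5.14 and 8.62 CPM in BAP1 KO, was nearly all CD68. The 5 endothelial markers summed to 1.96 and 1.79 CPM in control, against 1.44 and 1.96 CPM in BAP1 KO. In these bulk libraries, fewer cells expressing a gene and less RNA per cell cannot be told apart.

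The epithelial splicing program was read through partners and targets of ESRP1 and ESRP2. Among all tested genes 10.4% fell and 12.1% rose in BAP1 KO. Of 11 splicing factors that act with or against ESRP1 or ESRP2, 2 fell there. None rose in edgeR, 1 rose in DESeq2, and 2 were higher at an unadjusted edgeR p under 0.05 and when either WT library was left out. RBM47, an RNA-binding protein of epithelial cells, fell from 40.5 and 41.7 to 4.53 and 4.92 CPM (-3.12 ± 0.26, adjusted p = 0.000129, held in all alternatives). QKI fell by 0.75 on the log2 scale, a call lost without each control and each BAP1 KO library (up to 0.135). RBM47 also fell in MLL4 KO, from 35.0 and 36.6 to 10.9 and 19.7 CPM (-1.24 ± 0.23, adjusted p = 0.0132, lost without WT replicate 2 at 0.0616), as did HNRNPM (-0.71), a call lost without WT replicate 2, MLL4 KO replicate 2, control replicate 1 or control replicate 2 (0.0510 to 0.116).

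Of 20 genes with exons that ESRP proteins are known to regulate, 6 rose and 4 fell in BAP1 KO, and 1 rose and 4 fell in MLL4 KO. Among all tested genes 12.1% rose and 10.4% fell in BAP1 KO, and 9.13% rose and 10.0% fell in MLL4 KO. MAGI1, a junction scaffold, rose by 2.11 ± 0.20 on the log2 scale in BAP1 KO, and PLEKHA1 fell by 1.14 ± 0.13, both in all alternatives. Leaving out single libraries of the BAP1 comparison brought the counts to 1 or 2 in each direction, and leaving out a WT library raised them to 9 and 5. In MLL4 KO no gene passed without WT replicate 2 or control replicate 1, 1 passed without MLL4 KO replicate 2 or control replicate 2, and 2 fell without MLL4 KO replicate 1, BAP1 KO replicate 1 or BAP1 KO replicate 2. Gene totals do not show exon choice, and transcript rows share most of their reads. The CD44 row with variable exons and the standard CD44 row differ by 396 bases, and the former held an excess of 15.5% and 14.8% of the standard row's reads in control and 11.8% and 13.0% in BAP1 KO. The groups did not overlap, with no test made. In WT the excess was 13.7% and 13.1%, above BAP1 KO and below control. In MLL4 KO it was 11.9% and 13.1%, also below control. CD44 itself rose in BAP1 KO (1.27 ± 0.25, adjusted p = 0.00897, lost without control replicate 1 at 0.0764, control replicate 2 at 0.0848 or BAP1 KO replicate 2 at 0.0515). For FGFR2 the row with the epithelial exon IIIb held 21 to 45 reads more than the row with the mesenchymal exon in every library. In BAP1 KO it held 24 and 23 more. As a share of the mesenchymal row's reads, this excess was 4.12% and 3.61% in control and 3.16% and 3.65% in BAP1 KO, overlapping. The 2 FGFR2 rows differ by 19 bases in length. The ENAH row with the epithelial exon held 7 to 17 reads more than the row without it, or 0.163% to 0.409% of the latter's reads.

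By their pattern over the 8 libraries, on log2(CPM + 1) and among 12010 genes with a mean of at least 5 CPM, the genes most like each member were as follows, with Pearson r as a description over 8 libraries that share their groups. GRHL2 was most like AFAP1L1 (r = 0.991) and SLC12A2-DT (0.988). OVOL1 was most like MARVELD1 (0.988) and ZNF282 (0.984). ZEB1 was most like F2R (0.997), which stood at 28.5 and 32.6 CPM in control, against 59.9 and 50.7 CPM in BAP1 KO, and DGKH (0.987). VIM was most like DPY19L1 (0.996) and TNFSF18 (0.979), which stood at 0.744 and 0.359 CPM in control, against 90.4 and 54.4 CPM in BAP1 KO. For the others the nearest gene was PFDN2 for GRHL1 (0.968), SOX4 for OVOL2 (0.961), PINK1-AS for ESRP1 (0.987), MLXIP for ESRP2 (0.988) and QRSL1 for SNAI2 (0.979).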

How the data were processed

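Poly(A) RNA from 1 µg of total RNA went into each library, made with a NEBNext Ultra II RNA kit, per the labels' protocols. The 15 ChIP-seq samples were not analysed here. The authors deposited 1 table per library with a whole-number read count and an RPKM value per RefSeq transcript, per the file headers. The deposited counts are not normalized, and the deposited RPKM values, scaled to length and library size, were used only to compare levels between genes. The submitters' processing notes name hg38, bcl2fastq, Bowtie2, STAR and SICER 1.1 without roles. Neither the counting tool nor the strand setting is given in the sources used here.

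Rows were joined to symbols through the RefSeq gene table of GRCh38.p14, and 605 of 88819 rows had none (0.23% to 0.252% of counts). Each gene was represented by its transcript row of highest mean count, since rows of a gene share reads. The test of counts used edgeR 4.0.16 under R 4.3.3 (filterByExpr, 16831 genes; TMM scaling; quasi-likelihood F test, robust, two-sided) in 1 model of all 8 libraries, with Benjamini-Hochberg adjustment over all tested genes and a threshold of 0.05. SE was taken as log2 fold change divided by the square root of F. The fit was tested on simulated data. Alternatives were DESeq2 1.42.0, RLE or upper-quartile scaling, other filters and transcript rows, a fit on 4 libraries, a block on the replicate number, and each library left out in turn. The crossed block and edgeR's legacy dispersion were added after seeing the data. The members, the gene lists and the tests were chosen with earlier results of these data known. From each list, genes past the threshold were named in order of p, up to 6 per comparison, with the 2 most similar genes per member. Part of that set is named. Names given beyond it, among them SNAI1, the genes without reads and the neighbouring genes, were chosen after their values were seen. Some genes of the lists entered the counts, but their own values are not reported here.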

Additional observations from a re-analysis of the deposited data

Results flagged for a closer look

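The effect of the knockout on GRHL2 differed between the MLL4 and BAP1 comparisons by a test of the difference itself. The effect in MLL4 KO minus that in BAP1 KO was 3.77 ± 0.31 log2 units (edgeR adjusted p = 0.000587), from -0.73 in MLL4 KO and -4.50 in BAP1 KO, and GRHL2 was lower in 2 of 2 libraries in each knockout.

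The effect on OVOL1 differed in the same way, by 2.55 ± 0.39 log2 units (adjusted p = 0.00461), from 0.22 in MLL4 KO, where the libraries overlapped with WT, and -2.33 in BAP1 KO, where both libraries were lower than control.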

How the results depend on the processing

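With 2 libraries a group, single libraries moved many counts of calls. Leaving out each library in turn gave 530 to 5290 genes in MLL4 KO against WT (main count 3219), 1075 to 5014 in BAP1 KO against control (3778), 681 to 4426 for the difference of the effects (2704) and 3253 to 7269 in control against WT (6662). Of the 9 tested members, 0 to 3, 3 to 7, 2 to 4 and 1 to 3 passed in these fits. Fitting only the 4 libraries of a comparison gave 60 genes and 0 members in MLL4 KO, and 6660 genes and 8 members in BAP1 KO. DESeq2 gave 5 members for the difference, and no adjusted value for SNAI2 in MLL4 KO. For the difference a fit on 4 libraries was not possible.

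The replicate numbers did not pair the libraries (correlation of same-numbered deviations -0.189 between WT and MLL4 KO and -0.001 between control and BAP1 KO). With the replicate block 2360, 3312, 2185 and 6194 genes and 3, 5, 2 and 2 members passed. With the MLL4 KO numbers crossed, 3367 genes passed in MLL4 KO and 3796 in BAP1 KO.

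Over single members, 605 of 666 alternative values kept direction and side of the threshold, 26 newly passed, 25 no longer passed and 10 reversed. The reversed values were all from uncalled changes with 1 library left out. With each library left out in turn, the MLL4 KO effect ranged from -0.18 (without MLL4 KO replicate 1; -0.037 without WT replicate 1) to 0.54 for OVOL1, from -0.56 (without MLL4 KO replicate 2; -0.22 without WT replicate 2) to 1.50 for VIM and from -0.79 to 0.16 (without MLL4 KO replicate 1) for GRHL1. The difference ranged from -0.99 to 0.41 (without BAP1 KO replicate 1; 0.020 without WT replicate 1) for OVOL2 and from -4.79 to 0.097 (without WT replicate 2) for SNAI2. Control against WT ranged from -1.20 to 0.45 (without WT replicate 2) for SNAI2 and from -1.38 to 0.34 (without WT replicate 1) for VIM. The cause was not tested. OVOL2, SNAI2 and ZEB2 had 39 reads or fewer in each library.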
